A study of Mus musculus with 4 samples.

Results

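The heat shock chaperone genes described here are Hspa1a, Hspa1b, Dnajb1, Hsph1, Hsp90aa1, Hspb1, Hspa8, Bag3, Hspd1 and Hspe1, 10 of the 23282 genes measured in the mouse heart. They were selected on their values in these same 4 libraries, so what follows is a description of them, with no test of whether they differ between conditions. Each gene had 1 value per library, and all 10 passed the minimum for low values in every comparison. The study asked how high-intensity aerobic exercise acts on the heart of normal and cancer-bearing mice, and RNA from the heart was measured by mRNA-seq. E-&T- is the normal control, E+&T- the normal exercise group, E-&T+ the cancer control and E+&T+ the cancer exercise group. All mice were males of the CDF1 strain, labelled as postnatal day 28, an age that the methods of the study give for the mice on arrival. Mice of the E+ groups ran on a motorized treadmill on alternate days, and mice of the T+ groups received CT26 murine colorectal cancer cells, an established line, through the tail vein. No gene was altered in any group, and the disseminated cancer cells are the tumor. Each group held 10 mice and is represented by 1 heart library, and whether a library came from 1 mouse or from pooled mice is not given in the sources used here. No difference between libraries therefore has a replicate check, the hours between the last run and tissue collection are not given, and such a difference cannot be told apart from a difference between the animals sampled.

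Heat shock proteins are molecular chaperones, which bind unfolded or newly made proteins and keep them from aggregating. In unstressed cells heat shock factor 1 is held inactive, and when unfolded proteins accumulate it forms trimers, binds repeats of a short heat shock element in front of chaperone genes and switches them on within minutes. The inducible HSP70 genes are nearly silent at rest and respond most, while constitutive relatives are always made. The heart depends on these proteins during heat, ischemia and mechanical load, and small heat shock proteins are abundant in cardiomyocytes.

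The RefSeq promoter windows (build GRCm38.p6, 250 bases before to 50 after a transcription start) were searched for the letters of a heat shock element, since these genes share a known regulator. They hold an entry for 8 of the 10 genes, and Hsp90aa1 and Hspa8 are not among them. The search was for GAANNTTC or TTCNNGAA, a pair of units facing each other, on both strands, with overlapping matches counted. Such a match stood in the windows of 7 of the 8 genes. Counted by windows, it stood in 8 of the 11 of these genes, and 15.1% of all 32851 windows hold it. The near-identical windows of Hspa1a and Hspa1b and the site shared by Hspd1 and Hspe1, described below, are each counted for both genes. Both windows of Hsph1 overlap and hold the same matches, and each is counted as a window. A run of 3 alternating units, GAANNTTCNNGAA or TTCNNGAANNTTC, stood in the windows of Hsph1, Hspd1 and Hspe1. It was found in 4 of the 11 windows, against 0.603% of all windows. In both windows of Hsph1 it is the same site, chr5:149636288-149636300, and Hspd1 and Hspe1 share their bases. The windows with a run therefore outnumber the separate places in the genome. Of the 2 windows of Hspd1, only the one with its start at chr1:55087932 held matches of either kind. The one with its start at chr1:55088243 held 0. These letters were not found in either window of Dnajb1. A match is a description of the sequence and not evidence of binding.

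The promoters of the inducible HSP70 pair are shown because Hspa1a and Hspa1b had the largest exercise differences of the 10 genes in normal mice. Both lie on the minus strand, Hspa1a upstream at chr17:34972157-34972306 and Hspa1b upstream at chr17:34959239-34959388, and the sequences run from 150 bases before the start to the base before it. Capitals mark the matches.
Hspa1a: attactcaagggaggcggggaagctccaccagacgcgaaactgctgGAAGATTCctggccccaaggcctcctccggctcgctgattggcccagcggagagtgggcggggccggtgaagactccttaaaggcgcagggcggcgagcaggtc
Hspa1b: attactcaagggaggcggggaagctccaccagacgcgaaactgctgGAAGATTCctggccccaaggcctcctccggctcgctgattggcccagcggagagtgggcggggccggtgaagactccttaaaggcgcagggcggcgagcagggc

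The windows of this pair were identical at 296 of 300 bases, and 1 of the 4 differing bases lies in the stretch shown. In both, the match spans positions -104 to -97 from the start.

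Hspd1 and Hspe1 are transcribed away from each other from a shared region, and their matches are the same bases read on opposite strands, chr1:55088059-55088076. For Hspd1 they lie before the start at chr1:55087932 but inside its GENCODE gene model, which begins at chr1:55088243. The Hspe1 sequence is chr1:55088052-55088081 on the plus strand and the Hspd1 sequence chr1:55088053-55088082 on the minus strand, and the capitals again mark the overlapping matches.
Hspe1: cggtccgTTCTAGAACCTTCCGGAAggccc
Hspd1: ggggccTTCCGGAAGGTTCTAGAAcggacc

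The matches of Hspb1 (chr5:135887789-135887838, plus strand), Hsph1 (chr5:149636352-149636381 and chr5:149636287-149636306, minus strand) and Bag3 (chr7:128523621-128523632, plus strand) are shown to compare their letters and positions with those above. The Hspb1 stretch and the first of Hsph1 lie before the RefSeq start, and the second of Hsph1 and that of Bag3 lie just after it.
Hspb1: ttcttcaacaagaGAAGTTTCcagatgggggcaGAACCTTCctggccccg
Hsph1 upstream: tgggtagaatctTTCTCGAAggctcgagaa
Hsph1 downstream: tgcagaTTCTGGAAAGTTCt
Bag3: accaGAAGTTTC

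The 4 libraries held 6595414 to 11545989 reads, and reads of the 8 cardiomyocyte markers, among them Myh6, Tnnt2 and Ttn, were present in every library at a similar summed level of 340907 to 393376 normalized reads. As a share of all reads these markers took 3.12% in E+&T+ and 4.39% to 4.53% in the other libraries. The E+&T+ library stood apart from the rest. Globin genes took 37.3% of its reads, against 7.86% to 8.76% in the other 3 libraries, and the sum of 7 erythroid markers was 3593425 normalized reads, against 508529 to 526656. In bulk tissue, fewer cells of a type and less RNA per cell cannot be told apart. Values below are log2(normalized reads + 1) as deposited, and a difference is the difference of 2 such values. The 95% interval given beside a difference is a Clopper-Pearson interval for the reads of the 2 libraries, and levels were compared by exact Poisson intervals. They cover counting error only, and not differences between animals or library preparations. Since PCR copies are not independent molecules, they can be too narrow even for counting error.

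E+&T- had the highest value of all 10 genes. Their summed reads were 15010 in E-&T- and 53676 in E+&T- among normal mice, and 22281 in E-&T+ and 18885 in E+&T+ among cancer-bearing mice, which is 0.228%, 0.633%, 0.234% and 0.164% of each library. Outside the globin genes the shares were 0.249%, 0.691%, 0.254% and 0.261%, so that the E+&T+ library was lowest of all reads and close to the sedentary libraries of the reads outside globin. Hspb1 alone gave 7018, 23311, 12634 and 10490 of the summed reads in the same order, so these shares mostly follow the abundant genes. The 3 libraries other than E+&T- had no common order. E-&T+ had the lowest value of Hspa1a, Hspa1b, Dnajb1, Hsph1, Hspd1 and Hspe1, E-&T- the lowest of Hsp90aa1, Hspb1 and Bag3, and E+&T+ the lowest of Hspa8. With reads scaled to the library total E+&T- was still highest for all 10, but the lowest library was E+&T+ for 6 genes, all but Hspa1a, Hspa1b, Dnajb1 and Hsph1, for which it was E-&T+.

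**Figure D1:**
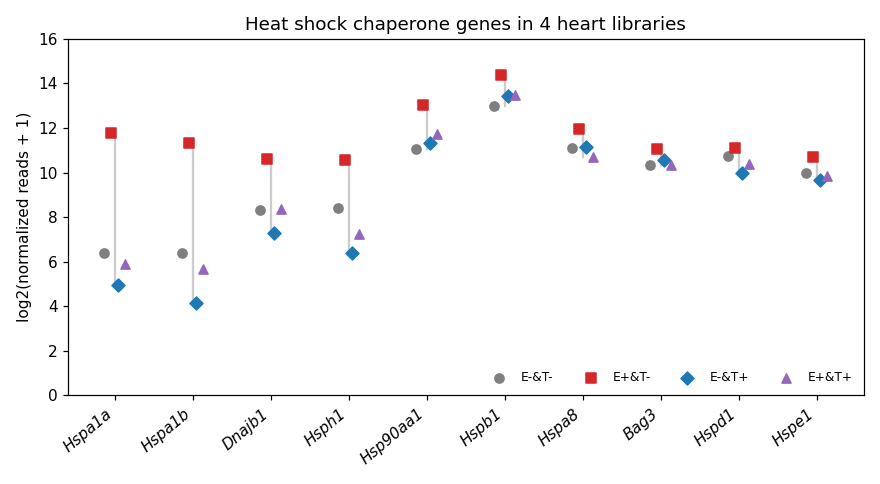
Deposited log2(normalized reads + 1) of the 10 heat shock chaperone genes (vertical axis) in the 4 heart libraries, 1 marker per library, with a grey line over the range of each gene. The E+&T- marker is the highest of every gene, and the range is widest for Hspa1b at 7.20 and narrowest for Bag3 at 0.72.

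**Figure D2:**
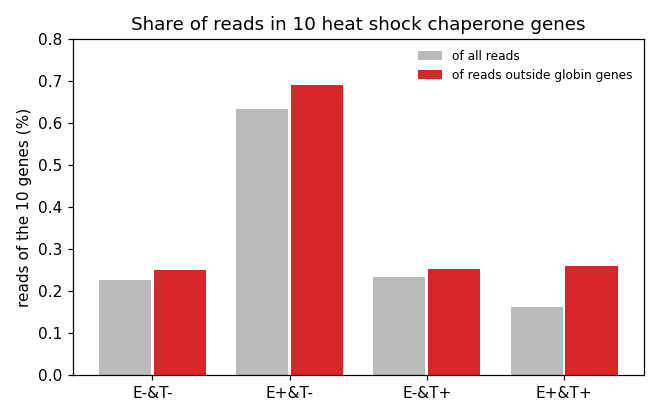
Percent of reads that belong to the 10 genes in each library (vertical axis, starting at 0), of all reads (grey bars) and of reads outside globin genes (red bars), with no error bars since each group has 1 library. The E+&T- bars reach 0.633% and 0.691%, and the E+&T+ pair differs most by the choice of denominator, at 0.164% and 0.261%. Hspb1 gave the most reads of the 10 genes in every library.

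Hspa1a (chr17:34969190-34972156, GENCODE M21 on GRCm38) and Hspa1b (chr17:34956436-34959238) encode the stress-inducible cytosolic HSP70, which folds client proteins in cycles of ATP use. The log2 value of Hspa1a was 6.37 in E-&T- and 11.77 in E+&T- among normal mice, and 4.94 in E-&T+ and 5.89 in E+&T+ among cancer-bearing mice, from 71, 3849, 34 and 53 reads. That of Hspa1b was 6.37, 11.33, 4.13 and 5.66 in the same order, from 71, 2844, 19 and 45 reads. For both genes E+&T- stood far above the other 3 libraries, E-&T+ was lowest, and the intervals of E-&T- and E+&T+ overlapped. Exercise without tumor was accompanied by a difference of 5.40 for Hspa1a (95% interval 5.08 to 5.78), a 42.1-fold higher level, and of 4.96 for Hspa1b (4.64 to 5.34). These were the second and the fourth highest of the 13937 genes compared. With tumor, the exercise difference was 0.94 (0.30 to 1.62) for Hspa1a and 1.52 (0.75 to 2.41) for Hspa1b, on 19 to 53 reads per library. Between the sedentary libraries, that of cancer-bearing mice was lower, with differences of -1.43 for Hspa1a (-2.08 to -0.83) and -2.24 for Hspa1b (-3.09 to -1.53).

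The coding parts of this pair are nearly the same, which makes the division of their reads a matter of counting, but QuantSeq reads come from the 3′ end. Of the 426 stretches of 75 bases, the read length, in the last 500 bases of each transcript, 0 were shared with a transcript of another gene. The best placement of a Hspa1a stretch on Hspa1b had 37 mismatches, and that of a Hspa1b stretch on Hspa1a had 33. Hspa1a also overlaps the gene model Gm20481 on the opposite strand by 2225 bases, and the use of strand in counting is not given in the sources used here.

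Dnajb1 (chr8:83608193-83612653) encodes the J-domain partner that stimulates the ATPase of HSP70, and Hsph1 (chr5:149614287-149636376) encodes HSP110, which exchanges its nucleotide. Dnajb1 measured 8.34 in E-&T- and 10.59 in E+&T- among normal mice, and 7.29 in E-&T+ and 8.36 in E+&T+ among cancer-bearing mice, from 281, 1699, 177 and 299 reads. Hsph1 measured 8.42, 10.58, 6.37 and 7.23, from 297, 1694, 93 and 136 reads. Both shared the order of the extremes with the HSP70 pair, with E+&T- highest and E-&T+ lowest. For Dnajb1 the intervals of E+&T+ and E-&T- overlapped, and for Hsph1 no neighbours in the order did. Exercise without tumor gave a difference of 2.25 for Dnajb1 (2.07 to 2.44) and 2.17 for Hsph1 (1.99 to 2.35). With tumor it was 1.06 (0.79 to 1.34) and 0.86 (0.47 to 1.25). E-&T+ had lower values of both than E-&T-, with differences of -1.04 for Dnajb1 (-1.32 to -0.77) and -2.05 for Hsph1 (-2.41 to -1.71).

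Hsp90aa1 (chr12:110690605-110702728) encodes the inducible HSP90 alpha, which matures kinases and hormone receptors. Its values were 11.05 in E-&T- and 13.04 in E+&T- among normal mice, and 11.35 in E-&T+ and 11.72 in E+&T+ among cancer-bearing mice, from 1847, 9304, 2952 and 3088 reads. Its order differed from that of the HSP70 pair, with E-&T- lowest and no overlap between neighbours. The exercise difference was 1.99 without tumor (1.92 to 2.06) and 0.38 with tumor (0.30 to 0.45), and the latter was -0.21 when reads were scaled to the library total.

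Hspb1 (chr5:135887919-135889563) encodes HSP27, a small heat shock protein that holds unfolding proteins without using ATP and protects actin filaments. It measured 12.97 in E-&T- and 14.36 in E+&T- among normal mice, and 13.44 in E-&T+ and 13.49 in E+&T+ among cancer-bearing mice, from 7018, 23311, 12634 and 10490 reads. E+&T- was highest, E-&T- lowest, and the libraries of cancer-bearing mice lay between them with overlapping intervals. Exercise without tumor gave 1.39 (1.35 to 1.43). With tumor the difference was 0.04, or -0.54 when reads were scaled to the library total and -0.02 when genes over 1% of a library were left out, so its direction depends on the scaling. Of its stretches of 75 bases, 10.3% also occur in the pseudogene Hsp25-ps1.

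Hspa8 (chr9:40800984-40810087) encodes the constitutive HSP70, HSC70, which folds newly made chains and uncoats clathrin vesicles. Its values were 11.12 in E-&T- and 11.95 in E+&T- among normal mice, and 11.17 in E-&T+ and 10.71 in E+&T+ among cancer-bearing mice, from 1935, 4361, 2602 and 1528 reads. The sedentary libraries overlapped each other, the exercised library without tumor was above them and the exercised library with tumor was below them. The exercise difference was thus 0.83 without tumor (0.75 to 0.91) and -0.46 with tumor (-0.55 to -0.37). Processed copies of this gene share its 3′ end, since 80.8% of its stretches of 75 bases occur in 8 other genes, most often Gm15459, and how reads that match several genes were placed is not given in the sources used here.

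Bag3 (chr7:128523616-128546981) encodes a co-chaperone that links HSP70 to small heat shock proteins and to autophagy of damaged filamin in muscle. It measured 10.33 in E-&T- and 11.05 in E+&T- among normal mice, and 10.56 in E-&T+ and 10.36 in E+&T+ among cancer-bearing mice, from 1123, 2338, 1715 and 1198 reads. The range of 0.72 was the narrowest of the 10 genes, and E+&T+ and E-&T- overlapped. Exercise without tumor gave 0.72 (0.61 to 0.82) and exercise with tumor -0.21 (-0.32 to -0.10).

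Hspd1 (chr1:55077835-55088243) and Hspe1 (chr1:55088132-55091307) encode HSP60 and HSP10, the chamber and the lid of the mitochondrial folding machine. Hspd1 measured 10.73 in E-&T- and 11.12 in E+&T- among normal mice, and 9.97 in E-&T+ and 10.37 in E+&T+ among cancer-bearing mice, from 1482, 2458, 1132 and 1208 reads. Hspe1 measured 9.99, 10.68, 9.67 and 9.85, from 885, 1818, 923 and 840 reads. Both had the same order, E+&T-, E-&T-, E+&T+ and E-&T+ from high to low, but the neighbours among the lower 3 libraries overlapped for Hspe1 and none overlapped for Hspd1. The exercise difference of Hspd1 was 0.39 without tumor (0.29 to 0.48) and 0.40 with tumor (0.29 to 0.52), the least apart of the 10 genes. That of Hspe1 was 0.70 (0.58 to 0.81) and 0.17 (0.04 to 0.31). With reads scaled to the library total, the differences with tumor were -0.18 for Hspd1 and -0.41 for Hspe1. The gene models overlap by 112 bases on opposite strands at their 5′ ends, and 39.0% of the 3′ stretches of Hspe1 occur in another gene, AC117239.2 or Hspe1-ps2.

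Comparing E+&T- with E-&T- asks what exercise does in normal mice. All 10 genes were higher in E+&T-, and 6 were at least 2-fold higher, namely Hspa1a, Hspa1b, Dnajb1, Hsph1, Hsp90aa1 and Hspb1. Over all genes with at least 4 normalized reads in 1 of the libraries compared, 5.88% were at least 2-fold higher and 6.40% at least 2-fold lower. The genes were selected on this contrast among others, so nothing is read from that contrast of shares. The median difference of the 10 genes was 1.69, that of all genes 0.00, and with the HSP70 pair left out the median of the other 8 was 1.11. All 6 adipocyte markers were at least 2-fold lower in E+&T-, with a summed level of 2026 normalized reads in E-&T- and 526 in E+&T- and with Lep at 0 reads in E+&T-. Of 5 endothelial markers, 4 were lower and 1 higher, 0 of them at least 2-fold, with a median of -0.51. The part of these cell types in the result was not tested.

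Comparing E+&T+ with E-&T+ asks the same in cancer-bearing mice. Here 8 genes were higher and 2 lower, Hspa8 and Bag3, and only Hspa1b and Dnajb1 were at least 2-fold higher, where 9.39% of all genes were at least 2-fold higher and 10.0% at least 2-fold lower. The median of the 10 genes was 0.39, and that of all genes -0.01. Scaling reads to the library total moved the median of all genes to -0.60 and that of the 10 genes to -0.20, so that relative to all genes the 10 lay 0.40 higher under either scaling. Under that scaling 4 genes were higher, Hspa1b had a difference of 0.93 and Dnajb1 of 0.48, and Hspa8 was more than 2-fold lower at -1.04. All 7 erythroid markers and the 5 adipocyte markers with enough reads were at least 2-fold higher in E+&T+, with adipocyte sums of 434 and 2582 normalized reads in E-&T+ and E+&T+, Plin1 at 0 reads in E-&T+ and Lep at 0 in both. Of 6 fibroblast markers, 4 were at least 2-fold lower, with sums of 55031 and 32034. The part of these cells in the result was not tested.

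The tumor comparisons ask what cancer does without and with exercise, and each shares a library with an exercise comparison. In E-&T+ against E-&T-, 4 genes were higher and 6 lower, with a median of -0.54 where that of all genes was -0.01. Hspa1a, Hspa1b, Dnajb1 and Hsph1 were at least 2-fold lower and 0 were 2-fold higher, and over all genes 13.1% and 14.6% were so. Hspd1 and Hspe1 were lower too, at -0.77 (-0.88 to -0.65) and -0.32 (-0.45 to -0.18). Against these, Hspb1 was higher by 0.47 (0.43 to 0.51), Hsp90aa1 by 0.30 (0.21 to 0.38) and Bag3 by 0.23 (0.12 to 0.34). With reads scaled to the library total these 3 differences fell below their intervals, to 0.32, 0.145 and 0.08. Hspa8 differed by 0.05, with an interval of -0.04 to 0.13, and by -0.10 with reads scaled to the library total. In the same comparison, all 6 adipocyte markers were at least 2-fold lower. Of 5 endothelial markers, 2 were at least 2-fold lower and 2 were higher. At least 2-fold higher were 4 of 6 fibroblast markers and 3 of the 5 measured myeloid markers. These 3 were S100a8 at 4.82, S100a9 at 4.55 and Cd68 at 1.86, while Csf1r at -0.11 and Adgre1 at -0.37 were lower. The myeloid sums were 1258 normalized reads in E-&T- and 4109 in E-&T+. The part of these cell types in the result was not tested.

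In E+&T+ against E+&T-, all 10 genes were lower under every scaling tried, with a median of -1.28 where that of all genes was -0.01. At least 2-fold lower were 6 genes, Hspa1a (-5.88, interval -6.33 to -5.52), Hspa1b (-5.68, -6.17 to -5.28), Hsph1 (-3.36, -3.63 to -3.11), Dnajb1 (-2.23, -2.41 to -2.05), Hsp90aa1 (-1.32, -1.38 to -1.26) and Hspa8 (-1.24, -1.32 to -1.15). Over all genes 11.1% were at least 2-fold lower and 12.0% at least 2-fold higher. The remaining 4 genes lay between -0.88 for Hspb1 and -0.69 for Bag3. Scaled to the library total, where the median of all genes was -0.74, all 10 genes were at least 2-fold lower. Other cell markers moved with this comparison too. At least 2-fold higher in E+&T+ were 7 of 7 erythroid markers, 4 of the 5 adipocyte markers with enough reads, with sums of 526 and 2582 normalized reads in E+&T- and E+&T+, and 2 of 5 myeloid markers, with sums of 1241 and 6079, while 1 myeloid marker and 3 of 6 fibroblast markers were at least 2-fold lower. The 2 higher myeloid markers were S100a8 and S100a9, and Adgre1 was the lower. Of 5 endothelial markers, 1 was at least 2-fold higher as deposited and 3 were lower. The part of these cell types in the result was not tested.

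Subtracting the exercise difference without tumor from that with tumor gave negative values for 9 genes. They ran from -4.45 for Hspa1a and -3.44 for Hspa1b to -0.92 for Bag3 and -0.52 for Hspe1, with Hsp90aa1 at -1.62, Hspb1 at -1.35, Hsph1 at -1.31, Hspa8 at -1.29 and Dnajb1 at -1.19. For Hspd1 the value was 0.02 as deposited. With reads scaled to the library total, the exercise differences of Hspd1 were 0.37 without and -0.18 with tumor. With genes over 1% of a library left out they were 0.344 and 0.337. With 1 library per group these differences of differences were not tested. At the deposited scaling, the 95% intervals of the exercise difference without and with tumor did not overlap for any gene but Hspd1. That speaks of reads counted and not of mice.

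**Figure D3:**
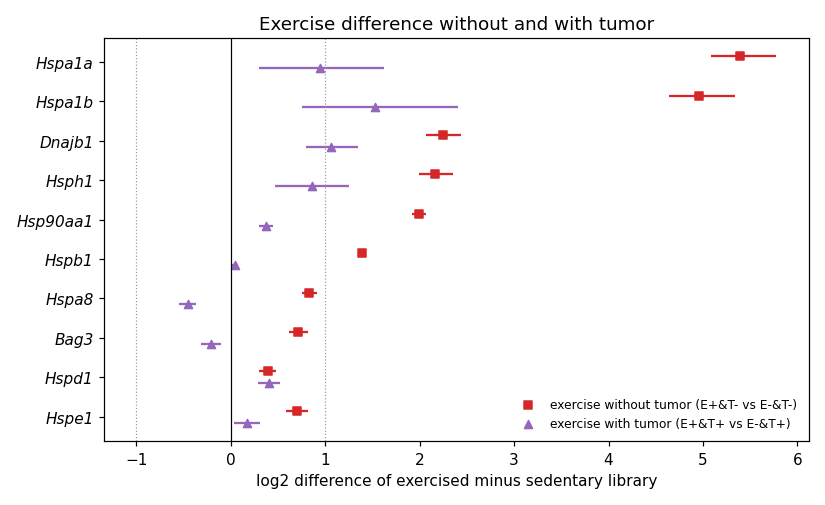
Log2 difference of the exercised minus the sedentary library (horizontal axis) for each gene, without tumor (red squares) and with tumor (purple triangles), with bars for the 95% Clopper-Pearson interval of counting error and dotted lines at 2-fold. As deposited, the squares lie right of the triangles for all genes but Hspd1, where 0.39 and 0.40 meet, and Hspa8 and Bag3 have triangles left of 0.

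Other chaperone genes were taken from lists written from general knowledge, and over each list the same 2-fold calls were counted. In E+&T- against E-&T-, 6 of 8 other HSP70 and HSP110 genes were higher, 1 at least 2-fold, with a median of 0.22. That gene was Hspa1l, the testis-enriched HSP70 next to Hspa1a and Hspa1b on chromosome 17, which measured 5.20 in E-&T- and 6.52 in E+&T- among normal mice, and 5.82 in E-&T+ and 5.45 in E+&T+ among cancer-bearing mice, from 31, 100, 63 and 39 reads, an exercise difference without tumor of 1.32 (0.75 to 1.98). Its pattern differed from that of its neighbours in that E-&T+, their lowest library, was its second highest. The distant members of the family Hspa12a and Hspa12b had larger differences by tumor than by exercise, with values of -2.11 for both in E-&T+ against E-&T- and of -0.52 and -0.24 in E+&T- against E-&T-.

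Among cytosolic HSP90 and its co-chaperones, 13 of 14 genes were higher in E+&T- than in E-&T-, 2 at least 2-fold, with a median of 0.46. These were Stip1, the adaptor that passes clients from HSP70 to HSP90, with values of 8.82, 9.96, 8.64 and 8.53 and a difference of 1.15 (0.98 to 1.32), and the co-chaperone Chordc1, with 8.99, 10.03, 7.40 and 8.24 and a difference of 1.05 (0.89 to 1.21). Ahsa1, the activator of the HSP90 ATPase, differed by 0.77 (0.62 to 0.92), and Hsp90ab1, the constitutive HSP90 beta, by 0.65 (0.62 to 0.68), against 1.99 for the inducible Hsp90aa1. With tumor, 6 of 14 were higher after exercise and 0 at least 2-fold, with a median of -0.05, and 2 of 14 with a median of -0.63 when reads were scaled to the library total. Chordc1 had an exercise difference of 0.84 (0.56 to 1.11) there, Stip1 had -0.11 (-0.32 to 0.09) and Hsp90ab1 -0.37 (-0.41 to -0.34). The immunophilin Fkbp4 was lower with tumor, at -1.45 (-1.55 to -1.34) in sedentary and -1.36 (-1.45 to -1.27) in exercised hearts.

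Of 18 other J-domain proteins of the cytosol and nucleus, 12 were higher in E+&T- than in E-&T- with a median of 0.11, and 1 was at least 2-fold higher. This was Dnaja1, a farnesylated HSP40, with 9.96, 11.34, 9.26 and 9.51 and a difference of 1.38 (1.27 to 1.49), below the 2.25 of Dnajb1. Its order of libraries, with E+&T- highest and E-&T+ lowest, was that of Dnajb1 at both ends as deposited, while E+&T+ was its lowest library when reads were scaled to the library total. Of these 18 genes, the 1 at least 2-fold higher in E+&T+ than in E-&T+ was Dnajc27, at 1.31 (0.73 to 1.96) from 35 and 71 reads, and it was under 2-fold when reads were scaled to the library total.

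Of the other small heat shock proteins, all 6 were higher in E+&T- than in E-&T-, 0 at least 2-fold, with a median of 0.30 where Hspb1 had 1.39, and all 6 were lower in E+&T+ than in E-&T+, again 0 at least 2-fold as deposited but 3 when scaled to the library total, with a median of -0.33. Cryab, alpha B-crystallin, the desmin-protecting chaperone of cardiomyocytes, measured 13.82, 14.12, 14.06 and 13.83, with exercise differences of 0.30 (0.27 to 0.33) and -0.23 (-0.27 to -0.20). Hspb7, the cardiovascular small heat shock protein, was set apart by tumor, at 11.81, 11.88, 13.18 and 12.66, a difference of 1.37 (1.32 to 1.43) between the sedentary libraries. Hspb8, the partner of Bag3 in muscle, had 11.48, 11.78, 11.42 and 11.19, and Hspb3 was at least 2-fold lower in E+&T+ than in E+&T-, at -1.61 (-2.11 to -1.17).

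The other folding machines of the cytosol and mitochondria had medians near that of all genes in E+&T- against E-&T-. The median was 0.12 over 5 other BAG proteins, 0.12 over 14 subunits of the cytosolic chaperonin TRiC/CCT and of prefoldin, and 0.04, or -0.0039 when genes over 1% of a library were left out, over 11 other mitochondrial chaperones and proteases, and 0 of these 30 genes was at least 2-fold different in this comparison. Hspa9, the mitochondrial HSP70, measured 11.69, 11.72, 11.48 and 11.61 with an exercise difference of 0.03 (-0.04 to 0.10), where Hspd1 and Hspe1 of the same compartment had 0.39 and 0.70. Dnaja3, its J-domain partner, was lower in E-&T+ than in E-&T-, with a difference of -1.44 (-1.73 to -1.17).

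Chaperones of the endoplasmic reticulum serve secreted and membrane proteins and answer to a separate stress pathway, the unfolded protein response. All 16 were higher in E+&T- than in E-&T-, and 5 were at least 2-fold higher, with a median of 0.80. Sdf2l1 had 6.13, 7.95, 6.25 and 5.96 and a difference of 1.82 (1.43 to 2.27). Hspa5, the HSP70 of this compartment known as BiP, had 12.38, 13.43, 12.48 and 12.74 and a difference of 1.05 (0.999 to 1.10). Like the 10 genes, both were highest in E+&T-. Serpinh1, or HSP47, which folds collagen and is also a heat shock factor target, had 9.72, 10.98, 8.61 and 7.99 and differences of 1.26 (1.14 to 1.38) without and -0.62 (-0.86 to -0.39) with tumor. In E+&T+ against E-&T+, 4 of the 16 genes were higher and 0 at least 2-fold different, with a median of -0.14, while 0 were higher and 4 at least 2-fold lower when scaled to the library total. In E+&T+ against E+&T- 14 were lower, 9 of them at least 2-fold, with a median of -1.11. Serpinh1 was lower there, at -2.98 (-3.19 to -2.79). Of 6 fibroblast markers, 5 were lower, 3 of them at least 2-fold, and Dcn was higher by 0.39. Their sums of 30225 and 32034 normalized reads in E+&T- and E+&T+ mostly follow Dcn, which had 24864 and 26892 reads. The part of fibroblasts was not tested.

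The transcripts of heat shock factors were measured as well. Hsf1 measured 7.10 in E-&T- and 6.87 in E+&T- among normal mice, and 6.14 in E-&T+ and 6.04 in E+&T+ among cancer-bearing mice, from 119, 128, 79 and 59 reads. Its exercise differences of -0.23 (-0.61 to 0.14) and -0.11 (-0.62 to 0.39) had intervals that included 0, and it was lower with tumor, at -0.96 (-1.40 to -0.55) in sedentary and -0.83 (-1.31 to -0.39) in exercised hearts. Hsf2 had 7.24, 7.33, 7.56 and 7.65 and Hsbp1, a binding protein of these factors, 10.64, 10.60, 10.67 and 10.81. The activity of heat shock factor 1 is set on the protein, which was not measured here.

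Immediate early genes, which are switched on within minutes of many kinds of stimulus, were all 10 higher in E+&T- than in E-&T-, 5 at least 2-fold, with a median of 0.92. Atf3 measured 5.93, 8.20, 8.45 and 9.15, and Egr1 7.46, 8.64, 9.01 and 10.37. Junb measured 7.56, 8.73, 9.87 and 10.58. Unlike any of the 10 chaperone genes, these 3 were lowest in E-&T- and highest in E+&T+. Fosb measured 3.90, 3.94, 3.39 and 6.53 from 12, 16, 11 and 84 reads, highest in E+&T+ as well but lowest in E-&T+. Of the list, Fos, Jun and Dusp1, named after their values were seen, were highest in E+&T- as the chaperone genes were, at 6.64, 10.28 and 9.87. The remaining genes Ier2, Zfp36 and Nr4a1, named in the same way, had as deposited the extremes of Atf3, Egr1 and Junb. In E-&T+, 6 of the 10 immediate early genes, or 5 when scaled to the library total, were at least 2-fold higher than in E-&T-.

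**Figure D4:**
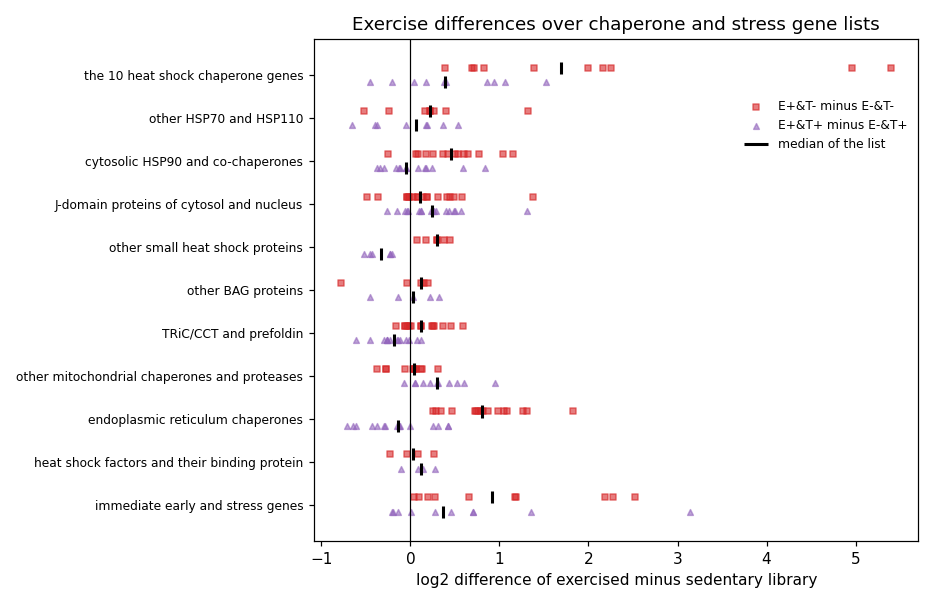
Log2 difference of the exercised minus the sedentary library (horizontal axis) for every gene of the 10 heat shock chaperone genes and of the 10 other lists, without tumor (red squares) and with tumor (purple triangles), with a black bar at the median of each list. Without tumor the median is 1.69 for the 10 genes, 0.92 for immediate early genes, 0.80 for endoplasmic reticulum chaperones and at most 0.46 for the other lists.

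The likeness of profiles was measured as the root mean square difference between log2 values over the 4 libraries, each centred on its mean, among 11623 genes that reached a mean of 16 normalized reads. Nearest to the median profile of the 10 genes was Dnal1, an axonemal dynein light chain, at 0.07, and others among the nearest were Creb3l2 at 0.09, Shc2 at 0.13, Stip1 at 0.14, Angptl7 at 0.14, Hyou1 at 0.15, Rnf41 at 0.15, Lancl3 at 0.16 and Manf at 0.16. Stip1, Hyou1 and Manf belong to the chaperone lists above. Of the other 6 named here, all but Angptl7 had 15 to 65 reads per library, so that counting error alone is wide. Nearest to Hspa1a, with Hspa1b set aside, were Hsph1 at 1.24, Chad at 1.45, Fmod at 1.45, Dnajb1 at 1.502 and Mgl2 at 1.55. These distances are larger than those to the median profile. Chad had 1, 91, 2 and 15 reads in E-&T-, E+&T-, E-&T+ and E+&T+. Fmod and Mgl2 had 19 to 26 reads in E-&T+ and E+&T+, so counting error is wide for these genes too. Hsph1 and Dnajb1 are among the 10 genes, which were selected on these same values, so nothing is read from their place here. With 4 libraries such distances are a description.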

How the data were processed

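Heart mRNA-seq of 4 libraries, 1 per group, was analysed. The authors made QuantSeq 3′ libraries, sequenced single 75-base reads, aligned them with Bowtie2 to mm10, obtained counts per gene in Bedtools and adjusted them by quantiles in edgeR. What the authors deposited is log2(normalized read count + 1). Whole reads were recovered by fitting relative library sizes and a dispersion of 0.149. Every value was given back within 0.000535. Among 25460 values of 5 to 99 reads, 100% were within 0.1 of a whole number. The recovery was checked on simulated data.

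Differences are of deposited values, and a pseudocount of 1 understates those of low genes. A call needed a fold of at least 2 and at least 4 normalized reads in 1 library. No test was run, since no group has a replicate, and an additive model over the 4 libraries, which assumes equal exercise differences with and without tumor, was not fitted. The 10 genes and all lists were chosen with earlier results of these data known. Named are the 10 genes, up to 4 genes per list with the widest range among means of at least 16 normalized reads, 5 fixed genes (Hsf1, Cryab, Hsp90ab1, Hspa9 and Hspa5), the 10 nearest profiles (1 of them is not reported here) and the 5 nearest to Hspa1a. Coordinates are from GENCODE M21. Alternatives covered scaling, abundant genes, pseudocount, depth, duplicate symbols, the HSP70 pair, the minimum and, chosen after seeing the data, the quantile adjustment. Figures were drawn with matplotlib 3.10.9, and pandas 2.3.3, scipy 1.17.1 and numpy 2.4.6 ran under Python 3.11.15.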

Additional observations from a re-analysis of the deposited data

Results flagged for a closer look

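Hspa8 and Bag3 had exercise differences of opposite direction without and with tumor, each with a counting interval away from 0. Hspa8 differed by 0.83 without tumor and by -0.46 with tumor, and Bag3 by 0.72 and -0.21. Another 3 differences, those of tumor, had opposite directions in sedentary and exercised hearts. They were 0.30 and -1.32 for Hsp90aa1, 0.47 and -0.88 for Hspb1, and 0.23 and -0.69 for Bag3. With reads scaled to the library total, the sedentary differences kept their direction but fell to 0.145, 0.32 and 0.08. With 1 library per group none of these contrasts was tested, and each pair shares libraries with the others.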

How the results depend on the processing

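Among the 10 genes, 3 scalings were set against the deposited values. Scaled to the library total, the median difference was -0.20 in exercise with tumor, in place of 0.39, -0.69 in tumor without exercise, in place of -0.54, and -1.997 in tumor with exercise, in place of -1.28. With reads subsampled to the smallest library these were -0.21, -0.68 and -1.99. With genes over 1% of a library left out, tumor without exercise gave -0.69 and tumor with exercise -1.45. In exercise with tumor, the genes at least 2-fold higher were 2 as deposited, 0 under both the first scalings and 1 without abundant genes, and those at least 2-fold lower were 0 as deposited and 1 under both the first scalings. In tumor with exercise, 10 in place of 6 were at least 2-fold lower under both. Of 40 differences of single genes, 24, 25 and 14 moved beyond their counting interval under these 3 settings and 0 with a pseudocount of 4, duplicate symbols summed or no quantile adjustment.

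Without the HSP70 pair, the medians were 1.11, 0.27, -0.13 and -1.06 in exercise without and with tumor and in tumor without and with exercise. With the pair summed as 1 gene they were 1.39 in exercise without tumor and -0.32 in tumor without exercise. Over all genes, the numbers past 2-fold were 1711, 2790, 3955 and 3289 in the same order. A minimum of 16 normalized reads gave 782, 1628 and 2102 in exercise without tumor, exercise with tumor and tumor with exercise, a minimum of 4 in both libraries gave 829, 1629, 2587 and 1986, and no minimum gave 2798 in exercise without tumor. Leaving out a library was not possible with 1 per group. No replicate block was fitted, since no group has a second library and the labels number no replicates. Depth limits Hspa1a and Hspa1b most, at 19 to 71 reads in every library but E+&T-.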
